A study of Homo sapiens with 16 samples.

Results

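The nuclear-encoded subunits of the respiratory chain complexes I to IV were read in all 16 RNA-seq libraries of a study of toxic small interfering RNAs. They were found by symbol: NDUFA, NDUFB, NDUFC, NDUFS or NDUFV followed by a number, UQCR, COX4 to COX8, and SDHA, SDHB, SDHC and SDHD. The rule took 69 of the 26485 genes counted and used no measured value. NDUFAF assembly factors, 1 pseudogene and 3 antisense genes were left out. The 69 subunits are 7 core and 29 accessory subunits of complex I, 4 of complex II, 8 of complex III and 12 of complex IV, 7 isoforms known from particular tissues or conditions, a readthrough transcript (NDUFC2-KCTD14) and a retrogene (UQCRHL). A filter on low counts kept 65 of them in PC3 cells, 62 in HeyA8 cells and 65 over both lines.

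PC3 is a prostate cancer cell line and HeyA8 an ovarian cancer cell line. In each line 1 library was made 24 h and 1 library 48 h after each of 4 treatments: mock, the non-targeting control siNT1, siGGGGGC (an siRNA whose seed is rich in G, titled siMxy in the labels) and siCAG. Doses of 1 nM were given in the labels, where the methods of the study give a higher one. The 24 and 48 h libraries served as the 2 replicates of a treatment, so every SD (n = 2) includes the change with time. By the methods of the study the times of siNT1 and siGGGGGC came from different wells, lysed 24 or 48 h after transfection. The wells kept to 48 h had their medium changed at 24 h.

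The respiratory chain of the inner mitochondrial membrane passes electrons from NADH (complex I) and succinate (complex II) through ubiquinone, complex III and cytochrome c to oxygen at complex IV. Complexes I, III and IV pump protons, and the gradient drives ATP synthase. Core subunits carry the redox centres, and accessory subunits surround them and are needed for assembly and stability. A small part of the chain is encoded in mitochondrial DNA. Those transcripts were not analysed here. Nuclear subunit genes are known targets of NRF1 and ETS family factors.

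Short siRNA seeds act on 3′ UTRs that hold the complementary 6 bases. The match of siGGGGGC is GCCCCC and that of the siNT1 guide is CGACTA. Among the 65 subunits tested in PC3 cells 5 had GCCCCC in the 3′ UTR (7.69%), against 30.4% of the 12690 genes tested there with an annotated coding transcript. The median 3′ UTR was 202 bases long in the subunits and 1322 bases in all those genes. CGACTA stood in the 3′ UTR of 1 subunit, NDUFA7 (1.54%, against 2.72% of the genes). A run of at least 4 CTG, in coding sequence or 3′ UTR, was found in 0 of the 65 subunits and in 2.82% of the genes. The matches are shown because they are complementary to the seeds of siGGGGGC and siNT1. They are given 5′ to 3′ on the transcript strand with the match in capitals, from the main GENCODE v44 transcript of each gene on hg38.

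NDUFA7: cacggccaccCGACTActttgcctcc
NDUFA5: caaagttgatGCCCCCtttctcccac
NDUFA9: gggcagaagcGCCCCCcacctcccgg
NDUFA9: gggcggaggcGCCCCCcacacaaaca
NDUFV3: gcaggcgtgaGCCCCCattcccagcc
UQCR10: ttccttggagGCCCCCatccaggcca
UQCR11: tcaaaagcaaGCCCCCcaggcccagc
COX6A2: ggccccggacGCCCCCggacacaata

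The CGACTA of NDUFA7 lies at chr19:8311478-8311483 on the minus strand, 22 bases into a 3′ UTR of 221 bases. Of the GCCCCC matches, that of NDUFA5 lies at chr7:123539403-123539408 (minus strand) and those of NDUFA9 at chr12:4689887-4689892 and chr12:4689928-4689933 (plus strand), beyond the end at 4687554 up to which the authors counted NDUFA9. The match of NDUFV3 (chr21:42911688-42911693) also lies beyond its counted end, at 42909663. Those of UQCR10 (chr22:29769730-29769735) and UQCR11 (chr19:1597447-1597452, minus strand) complete the subunits tested. COX6A2 had 0 counts in all 16 libraries, which allows up to 3 counts over all of them.

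Promoters were read for the 56 subunits with a RefSeq promoter (250 bases before to 50 after the start, GRCh38.p14), searched on both strands. The core letters of the NRF1 site, with any base at the centre, were held by 13 of 56 (23.2%), against 6.28% of all 27305 promoters. Of the 53 subunits tested in PC3 cells 12 held them (22.6%), against 11.1% of the 10919 promoters of genes tested there. CCGGAAG, an ETS core, was held by 15 (26.8% of the 56, against 10.7% of all promoters), all of them tested (28.3% of the 53, against 18%). AAGATGGC, the core of a YY1 site, was held by 8 (14.3% against 3.03%), also all tested (15.1% against 5.08%). The ETS and YY1 letters can overlap at AAG, and a match describes the sequence and not a bound site. One promoter with each of the first pair is shown, up to the base before the start, with the motif in capitals. COX5B, on chr2:97645812-97646061 (plus strand), has the ETS letters. UQCRFS1, on chr19:29213152-29213401 (minus strand), has the NRF1 letters.

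COX5B: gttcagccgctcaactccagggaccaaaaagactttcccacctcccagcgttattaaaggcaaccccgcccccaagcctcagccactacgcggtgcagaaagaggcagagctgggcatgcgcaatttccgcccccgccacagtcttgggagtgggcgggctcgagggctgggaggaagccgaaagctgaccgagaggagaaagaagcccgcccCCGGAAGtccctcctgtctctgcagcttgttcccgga
UQCRFS1: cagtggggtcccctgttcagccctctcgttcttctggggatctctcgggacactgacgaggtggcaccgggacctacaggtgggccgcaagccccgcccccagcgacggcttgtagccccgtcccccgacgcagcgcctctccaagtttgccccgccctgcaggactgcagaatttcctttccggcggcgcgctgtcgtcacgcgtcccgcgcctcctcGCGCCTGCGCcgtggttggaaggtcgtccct

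The 8 PC3 libraries held 27937092 to 29971612 counts and the 8 HeyA8 libraries 29128446 to 31790209. The 69 subunits took 0.463% to 0.750% of them. In PC3 cells they took 0.557% and 0.629% of the mock libraries at 24 and 48 h, 0.583% and 0.626% of the siNT1 libraries, 0.682% and 0.730% of the siGGGGGC libraries and 0.640% and 0.750% of the siCAG libraries. For HeyA8 the shares were 0.463% and 0.514% for mock, 0.501% and 0.519% for siNT1, 0.476% and 0.536% for siGGGGGC and 0.590% and 0.518% for siCAG. Thus all 4 PC3 libraries with an active siRNA lay above the 4 control libraries, and in HeyA8 cells only siCAG at 24 h and siGGGGGC at 48 h did. Fewer cells and less RNA per cell cannot be told apart in such bulk samples.

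The lines were checked against their markers. HOXB13, a prostate lineage factor, had 2280 to 13810 normalised counts in PC3 and 11 to 85 in HeyA8 libraries, while KLK2 and KLK3 were at 0 in PC3 cells. PAX8, a factor of the Müllerian lineage, had 1985 to 7483 normalised counts in HeyA8 and 42 to 179 in PC3 libraries, and MUC16 and FOLR1 were near 0 in HeyA8 cells. Both factors were lower after siGGGGGC: HOXB13 had 2778 and 2280 normalised counts there and 5056 and 7872 after siNT1 in PC3 cells, and PAX8 had 2554 and 1985 against 4614 and 5300 in HeyA8 cells. Their part in the subunit values was not tested. Of 5 epithelial markers all were counted in PC3 cells, with KRT19 highest, while CDH1 and KRT19 had means under 10 normalised counts in HeyA8 cells, where KRT8 was highest. The 3 mesenchymal markers VIM, CDH2 and ZEB1 were counted in both lines, led by VIM. Of 5 markers of other cells, the leukocyte, T cell and erythroid genes PTPRC, CD3E and HBB were near 0 in both lines. The other two were counted. The collagen gene COL1A1, the most abundant of the 5, had 631 to 1699 normalised counts in PC3 and 106 to 1403 in HeyA8 libraries. Its highest HeyA8 values were those of siCAG, with 666 at 24 h and 1403 at 48 h against 314 and 193 after siNT1. The endothelial gene PECAM1 had 42.7 to 139 normalised counts in PC3 and 2.16 to 60.5 in HeyA8 libraries, with 60.5 after siCAG at 48 h. The sum of the 5 ran from 758 to 1832 in PC3 and from 108 to 1464 in HeyA8 libraries, and its part in the subunit values was not tested. The 2 libraries of HeyA8 siCAG stood apart from each other: their log2 counts correlated across genes with r = 0.956, against 0.975 to 0.986 for the other 7 pairs (genes are not independent replicates). The values of HeyA8 siCAG at each time are therefore given beside the fits for the subunits and regulators named.

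Levels of different subunits were compared as normalised counts per kilobase in the mock libraries, with the shorter of the authors' counted length and the GENCODE transcript as the length. Complex IV stood highest, with a median over its 12 subunits of 5671 counts per kb in PC3 and 5664 in HeyA8 cells. The medians of the 7 core subunits of complex I were 2366 and 2252 counts per kb, those of the 29 accessory subunits 1643 and 1911, of complex II 2708 and 2438, and of complex III 1485 and 1878. COX7C, a small subunit of complex IV, led both lines with 18940 ± 2240 counts per kb in PC3 and 15290 ± 1990 in HeyA8 cells (SD, n = 2). In PC3 cells COX6A1 (10756 ± 869 counts per kb) and COX8A (8461 ± 1430) came next, and their means differed by less than the sum of their SDs. In HeyA8 cells UQCRH (10920 ± 1010 counts per kb) and NDUFB9 (8678 ± 686) followed. The counted lengths of UQCRH and NDUFB9 are 1990 and 2806 bases, against 537 and 691 of their transcripts. Their ranks in HeyA8 cells depend on the length used, 2 and 3 here but 15 and 22 by the counted length.

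The isoforms known from particular tissues were all low. COX4I2, a hypoxia-associated isoform that can take the place of COX4I1, had 0 to 2.79 normalised counts per library, and COX8C, a testis isoform, 0 to 1.03. COX7A1, the heart and muscle form beside COX7A2, had 1.16 to 12.1 normalised counts. NDUFA4L2, a hypoxia-induced relative of NDUFA4, had 3.5 to 18.5 normalised counts outside HeyA8 siCAG, where it had 79.8 and 61.6. COX7B2 was counted in PC3 cells only: its 8 libraries had 25.6 to 86.9 normalised counts, and those of HeyA8 0. NDUFC2-KCTD14 had 0 to 3.68 and cannot be separated from NDUFC2 in its shared exons. UQCRHL, with 39.4 to 301 normalised counts, shares sequence with UQCRH, so its counts are uncertain.

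Mock PC3 cells and mock HeyA8 cells were compared first, to see how the subunits of the lines differ without an siRNA. Of 65 subunits, 11 were lower and 10 were higher in PC3 cells by edgeR's quasi-likelihood test with Benjamini-Hochberg adjustment, at an adjusted p under 0.05. Leaving out 1 mock library left 5 to 6 lower and 3 to 8 higher, in fits where 12.8% to 15.7% of all genes were lower and 16.6% to 21.7% higher. In the fit of all libraries 22.0% of the 15887 genes tested were lower and 29.0% higher. The median log2 difference was -0.00 for the subunits and 0.10 for all genes.

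Complex I accessory subunits showed the largest differences among abundant members. NDUFA9, which lies at the junction of the matrix and membrane arms, had 1891 and 1698 normalised counts at 24 and 48 h in mock PC3 and 5233 and 5793 in mock HeyA8 cells. Its log2 difference was -1.62 ± 0.22 (SE, adjusted p = 0.000115), and every PC3 library lay below every HeyA8 library. NDUFS4, a subunit of the matrix arm, had 548 and 641 normalised counts in PC3 and 1448 and 1461 in HeyA8 cells (log2 difference -1.30 ± 0.18, adjusted p = 0.000141). NDUFB11, a membrane arm subunit, went the other way, with 1683 and 1878 normalised counts in PC3 and 645 and 702 in HeyA8 cells (1.40 ± 0.28, adjusted p = 0.0017).

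NDUFB8 was also lower in PC3 cells (log2 difference -0.91), and NDUFA1 (0.91) and NDUFB2 (0.81) were higher. In complex II the membrane anchors differed in opposite directions: SDHD had 3134 and 3230 normalised counts in PC3 against 5761 and 6132 in HeyA8 cells (-0.90 ± 0.17, adjusted p = 0.00122), and SDHC 4249 and 4274 against 2659 and 2658 (0.69, adjusted p = 0.0132). In complex III the core protein UQCRC1 was higher (0.64), while UQCRC2 (-0.70) and the Rieske iron-sulphur protein UQCRFS1 (-0.77) were lower. In complex IV COX6A1 was higher, with 5446 and 6106 against 2823 and 3149 normalised counts (0.95 ± 0.22, adjusted p = 0.00427), and COX7A2 (-0.66) and COX7A2L (-0.68), which helps to join complexes III and IV, were lower. Of the 7 core subunits of complex I only NDUFV2 passed (0.71). NDUFA1, NDUFA9, NDUFB11, NDUFS4, NDUFV2 and SDHD passed in all 9 alternatives run, but UQCRC2 in 3, COX7A2 in 4 and UQCRC1 in 5 of them.

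COX7B2 had 182 counts in the mock PC3 libraries and 0 in those of HeyA8, which makes it at least 50.3-fold higher against a floor of 3 counts over the group. For COX6B2, a testis isoform with 9 counts against 0, the bound was 2.49-fold. Over all libraries 6 of 65 subunits had all 8 PC3 above all 8 HeyA8 values (COX6A1, COX6B2, COX7B2, NDUFA1, NDUFB11 and NDUFV2), or 9.23%, against 20.2% of all genes. Another 5 (NDUFA9, NDUFA12, NDUFB8, NDUFS4 and UQCRHL), or 7.69%, had all 8 below, against 13.6% of all genes.

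**Figure D1:**
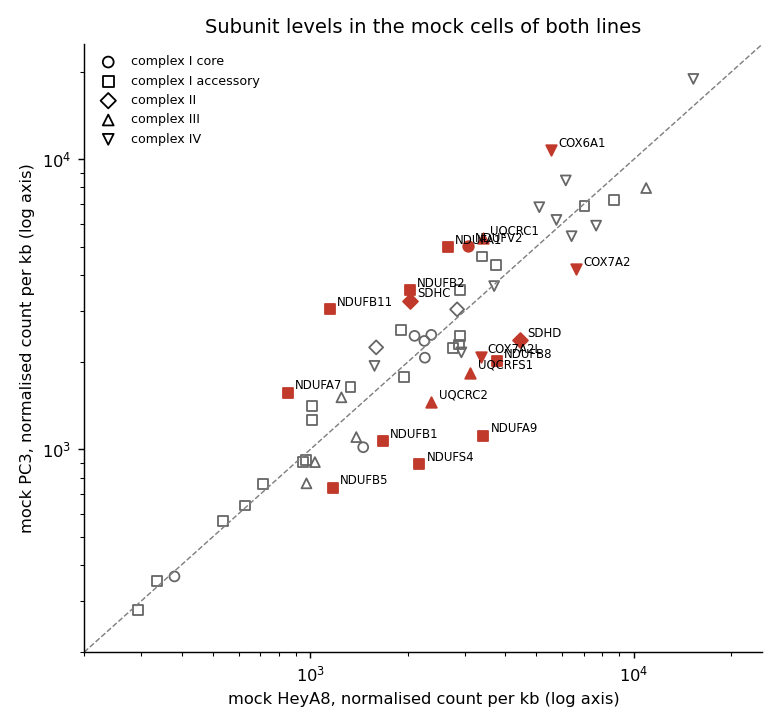
Normalised counts per kilobase of the subunits of complexes I to IV in mock HeyA8 (x axis) and mock PC3 cells (y axis), each point the mean of the 24 and 48 h libraries on log axes. Filled red points passed the test between the lines, the dashed line marks equal levels, and NDUFA9 and NDUFB11 lie far from it on opposite sides.

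The comparison of siNT1 with mock asks how cells given the control siRNA differ from mock cells. The labels do not say whether mock cells received the transfection reagent. None of the subunits passed edgeR's test in either line, where 0.231% of genes passed in PC3 and 0 of 13872 in HeyA8 cells. At an unadjusted p under 0.05, 3 of 65 subunits were lower and 0 higher in PC3 cells (3.86% and 5.15% of all genes), and 1 of 62 was lower and 0 higher in HeyA8 cells (0.634% and 0.642% of all genes). DESeq2 called 1 subunit lower in PC3 cells, NDUFA7, where it called 0.614% of all genes lower and 1.16% higher. In HeyA8 cells it called 0 subunits, with 0.00721% of all genes lower and 0 higher. The median log2 fold change was 0.05 in PC3 (38 of 65 above 0, all genes -0.01) and 0.09 in HeyA8 cells (51 of 62 above 0, all genes -0.00). Among members over 1000 normalised counts SDHA was lowest in PC3 cells (-0.46 ± 0.14, adjusted p = 0.353), with 5628 and 6479 normalised counts in mock, 4344 and 4406 in siNT1 and 5462 and 5278 in siGGGGGC libraries. Among the PC3 markers CDH1 passed edgeR's test as higher (1.34 ± 0.18, adjusted p = 0.0417). EPCAM (0.84) and COL1A1 (1.00) were above 0 and HOXB13 (-0.77), KRT8 (-0.30), KRT18 (-0.30) and KRT19 (-0.21) below, and none of these passed. The part of these markers in the subunit values was not tested.

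NDUFA7, an accessory subunit of complex I on chr19:8311300-8321396 (hg38, minus strand), stood at its lowest after siNT1 in both lines. In PC3 cells it had 770 and 1049 normalised counts in the mock libraries at 24 and 48 h, 550 and 431 after siNT1, 968 and 891 after siGGGGGC and 1017 and 1230 after siCAG. In HeyA8 cells it had 501 and 485 after mock, 309 and 255 after siNT1, 400 and 450 after siGGGGGC and 875 and 604 after siCAG. The siNT1 libraries were below every other library of their line. Against mock, the log2 fold change after siNT1 was -0.87 ± 0.22 in PC3 (adjusted p = 0.26) and -0.80 ± 0.25 in HeyA8 cells (adjusted p = 1), which do not pass. With the 4 compared libraries alone NDUFA7 was called lower in HeyA8 cells, where 5.05% of all genes were. That fit also called COX7A2L, NDUFS6, NDUFS7 and UQCR10 higher, and the share of all genes is given with the alternatives below. NDUFA7 is also the subunit with the siNT1 seed match shown above. Among all genes tested, the median siNT1 against mock was -0.08 with CGACTA in the 3′ UTR and -0.00 without for PC3. For HeyA8 these medians were -0.10 and -0.00. Whether the seed match has a part in the low NDUFA7 counts was not tested. An unnamed GENCODE gene on the same strand covers 77.9% of the exon bases of NDUFA7, so its counts are uncertain. The same holds for NDUFV2 (90% covered), NDUFA13 (83.9%), NDUFB8 (72%), SDHA (69.4%) and NDUFA11 (68.2%). On the opposite strand RPS28 covers 11.7% of the exon bases of NDUFA7, and unnamed genes cover 51.3% of those of NDUFS7. Such overlaps matter if counting did not use strand, which is not given in the sources used here.

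**Figure D2:**
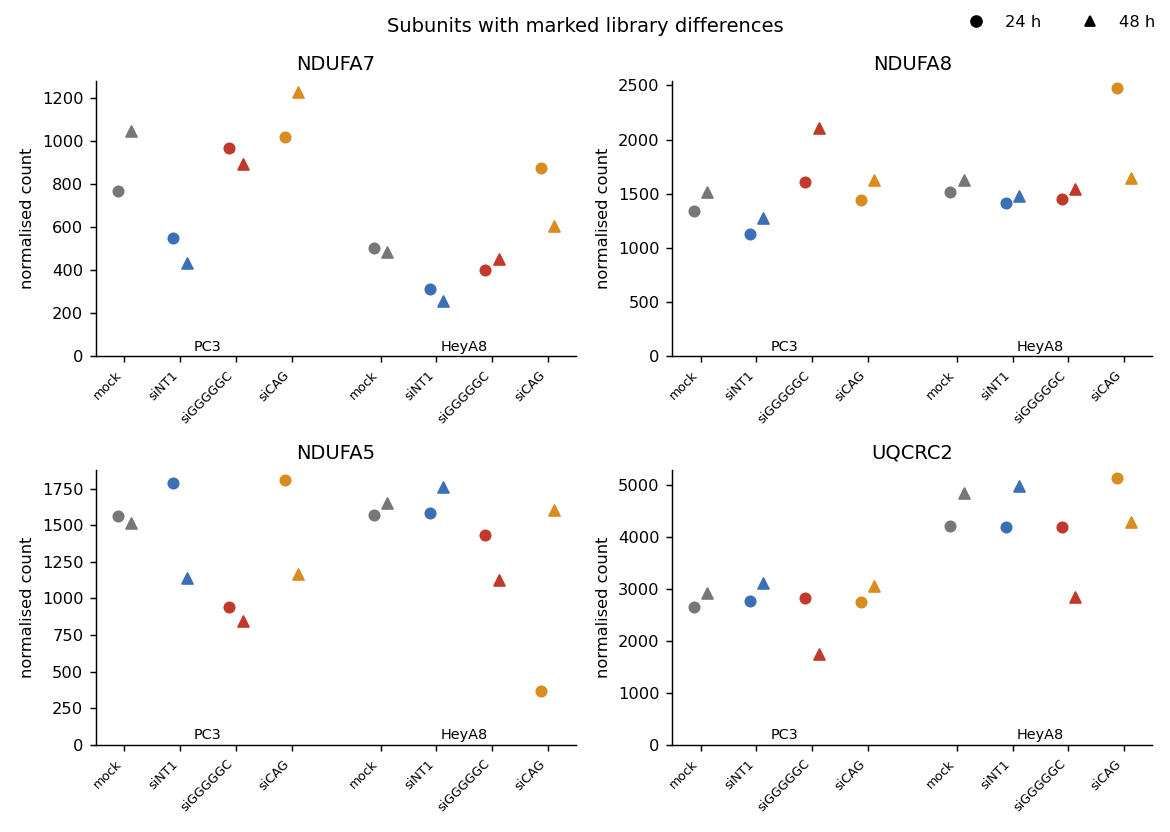
Normalised counts (y axis, from 0) of NDUFA7, NDUFA8, NDUFA5 and UQCRC2 in each library of PC3 (left) and HeyA8 (right), circles 24 h and triangles 48 h, coloured by treatment. NDUFA7 is lowest after siNT1 in both lines, and UQCRC2 is low after siGGGGGC at 48 h in both.

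In PC3 cells most subunits stood higher after siGGGGGC than after siNT1, by small amounts. Of 65 subunits 57 had a log2 fold change above 0, with a median of 0.27 (quartiles 0.13 and 0.37) beside 0.00 over all genes. Only 2 subunits passed edgeR's test, both higher, where 3.67% of all genes were higher and 6.00% lower. None was called lower by edgeR. At an unadjusted p under 0.05, 19 were higher and 2 lower, where 15.0% and 17.1% of all genes were. DESeq2 called 4 higher (NDUFA7, NDUFA8, NDUFB8 and NDUFS1) and 1 lower (NDUFA5), where it called 7.50% and 11.1% of all genes. Both siGGGGGC libraries lay above all 4 mock and siNT1 libraries for 36 of 65 subunits (55.4%), against 23.6% of all genes. Both lay below for 3 (4.62%: COX7B2, NDUFA5 and UQCRB), against 22.2% of all genes.

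The sums of the marker lists also differed between these libraries. The 5 epithelial markers summed to 22408 and 22387 normalised counts after siNT1 at 24 and 48 h and to 24575 and 13700 after siGGGGGC. At 48 h KRT19 stood at 4283 normalised counts with siGGGGGC, against 9403 with siNT1, while CDH1 had 723 and 581 after siNT1 and 1075 and 847 after siGGGGGC. The epithelial sum was thus lower at 48 h alone, and CDH1 was higher at both times. The 3 mesenchymal markers summed to 32885 and 31896 after siNT1 and 38083 and 38559 after siGGGGGC, although ZEB1 had 1313 and 471 after siNT1 and 183 and 285 after siGGGGGC. The 5 markers of other cells summed to 1130 and 1762 after siNT1 and 1026 and 758 after siGGGGGC. At 48 h COL1A1 stood at 715 with siGGGGGC against 1644 with siNT1, and PECAM1 at 42.7 against 116. The part of these markers in the subunit values was not tested.

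By complex, the 7 core subunits of complex I were all above 0, with log2 fold changes from 0.29 to 0.48. NDUFS1, the largest core subunit, had 4012 and 4507 normalised counts after siNT1 and 5408 and 6686 after siGGGGGC (0.48 ± 0.15, adjusted p = 0.0742). NDUFV1, which holds the NADH site, had 4007 and 4238 after siNT1 and 5482 and 5296 after siGGGGGC (0.36 ± 0.15, adjusted p = 0.136). Neither passed edgeR's test, although the groups did not overlap, and DESeq2 called NDUFS1 higher. Among the other core subunits NDUFS3 gave 0.29, NDUFS7 0.30, NDUFS8 0.37 and NDUFV2 0.34.

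Complex II was above 0 for all 4 subunits, at 0.27 for the flavoprotein SDHA, 0.27 for the iron-sulphur protein SDHB, 0.50 for SDHC and 0.09 for SDHD. Against mock SDHA gave -0.19 (adjusted p = 0.366), the opposite direction. SDHA shares sequence with pseudogenes and is uncertain. All 12 subunits of complex IV were above 0, from 0.01 (COX8A) to 0.41 (COX5B), with 0.27 for COX4I1 and 0.15 for COX5A, and none passed. Complex III was mixed, with 5 of 8 above 0. UQCRFS1 was at 0.24 and UQCRC1 at 0.14.

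The members called by edgeR were accessory subunits of complex I. NDUFA7 rose by a log2 fold change of 0.89 ± 0.22 (adjusted p = 0.0473), but against mock its value was 0.02 (adjusted p = 0.954). NDUFA8, a subunit of the membrane arm facing the intermembrane space, on chr9:122144059-122159819 (minus strand), had 1343 and 1515 normalised counts in the mock, 1131 and 1279 in the siNT1 and 1612 and 2110 in the siGGGGGC libraries. Its log2 fold change was 0.60 ± 0.15 (adjusted p = 0.0499), and 0.36 against mock (adjusted p = 0.127). NDUFA7 passed in 4 and NDUFA8 in 3 of 13 alternatives, and neither passed without the time term, which serves as the replicate block, with library size alone or with the 4 compared libraries alone. With mock as control 7 other subunits passed as higher, namely COX6A1, COX7A2, COX7A2L, NDUFA4, NDUFB2, NDUFB8 and NDUFS6, where 8.83% of all genes did, and 3 as lower (COX7B2, NDUFA5 and UQCRB), where 12.3% did.

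NDUFA5, an accessory subunit of the matrix arm that holds 1 GCCCCC in its 3′ UTR, had the lowest value. It had 1566 and 1516 normalised counts in mock, 1788 and 1137 in siNT1 and 942 and 848 in siGGGGGC libraries of PC3 cells (log2 fold change -0.70 ± 0.21 against siNT1, adjusted p = 0.0707). UQCRB, the ubiquinone-binding protein of complex III, had 6011 and 6910 in mock, 5974 and 5464 in siNT1 and 4095 and 4369 in siGGGGGC libraries (-0.46 ± 0.16, adjusted p = 0.0937). For both, the siGGGGGC libraries were the lowest of the line. The counted length of NDUFA5 is 56392 bases, against 5496 of its transcript, so its counts are uncertain as a measure of that transcript. SDHC has the same limit, with 16448 counted bases against 1308.

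UQCRC2, a core protein of complex III on chr16:21953064-21983660 (plus strand), was low at 48 h alone. In PC3 cells siGGGGGC gave 2819 normalised counts at 24 h and 1754 at 48 h, where siNT1 gave 2775 and 3109. In HeyA8 cells siGGGGGC gave 4203 at 24 h and 2846 at 48 h, where siNT1 gave 4203 and 4977. The log2 difference between these single libraries, normalised over all 16, was -0.82 in PC3 and -0.81 in HeyA8 cells at 48 h, and 0.02 and 0.00 at 24 h. Over both times UQCRC2 gave -0.40 ± 0.22 (adjusted p = 0.248) and -0.42 ± 0.27 (adjusted p = 0.677). It has 1 GCCCCC in its coding sequence, as 17 of 65 subunits do (26.2%, against 43.3% of the genes), and none in its 3′ UTR. UQCRC2 was named by the rule and its times were set apart after its values were seen.

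**Figure D3:**
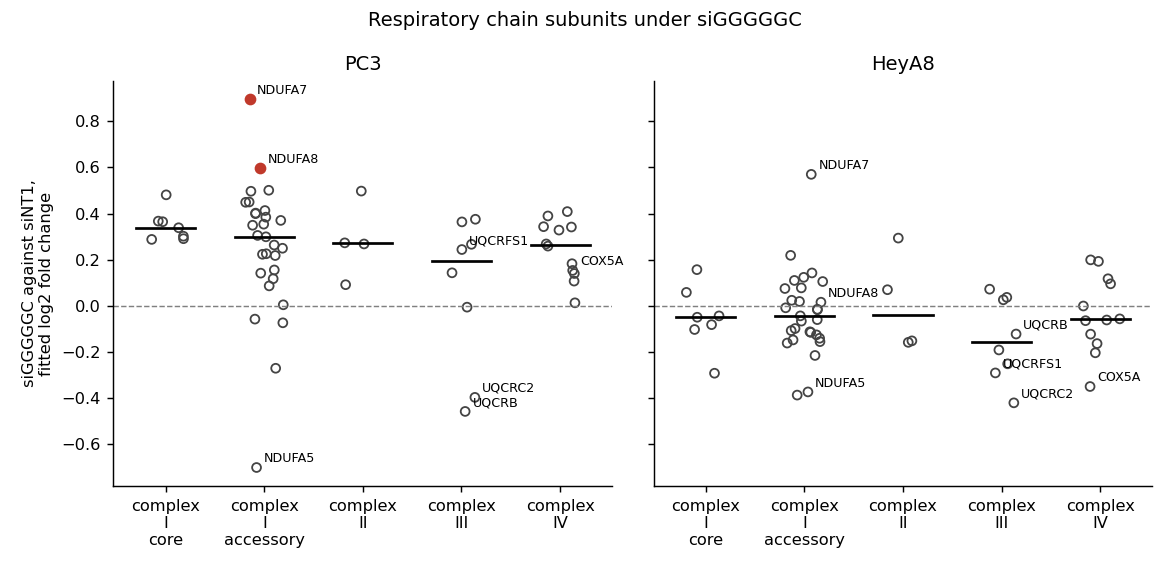
Fitted log2 fold changes of siGGGGGC against siNT1 (y axis) for the subunits of each complex (x axis) in PC3 and HeyA8 cells, 1 point a subunit, black bars the medians, red points those that passed edgeR's test. Nearly all PC3 points lie above 0, with NDUFA5, UQCRB and UQCRC2 lowest outside the tissue or condition isoforms, and HeyA8 points scatter around 0.

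In HeyA8 cells the subunits gave values on both sides of 0 after siGGGGGC. None of 62 passed edgeR's test, as 0 of all 13872 genes did. None had an unadjusted p under 0.05 (6.13% of all genes were lower and 3.61% higher), and DESeq2 called 0 (1.90% of all genes lower and 0.396% higher). With the 4 compared libraries alone 5.78% of all genes were lower and 3.09% higher, and still 0 subunits. The biological coefficient of variation was 28.2% in HeyA8 and 17.97% in PC3 cells. The median log2 fold change was -0.06, with 39 of 62 below 0. Normalised within the line, the median was -0.11 at 24 h and 0.03 at 48 h. It turned to 0.06 against mock and to 0.08 without the 24 h siGGGGGC library. None of 62 subunits had both siGGGGGC libraries above the 4 control libraries, against 18.2% of all genes, and 4 had both below (6.45%: COX5A, NDUFA5, NDUFB9 and UQCRFS1), against 15.2%.

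COX5A, a matrix subunit of complex IV, had 2587 and 2667 normalised counts after siNT1 and 2047 and 2165 after siGGGGGC (-0.35 ± 0.21, adjusted p = 0.66). NDUFB9 gave -0.39 and NDUFA5 -0.37, NDUFA7 was highest at 0.57 (adjusted p = 0.521), and among members over 1000 normalised counts the highest were 0.29 for SDHC, 0.22 for NDUFA12 and 0.20 for COX6B1. The core subunits of complex I ran from -0.29 (NDUFS7) to 0.16 (NDUFS1). Against mock NDUFA7 gave -0.23 and NDUFS7 0.12.

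The response to siGGGGGC was compared between the lines by an interaction term. The difference, PC3 minus HeyA8, was above 0 for 59 of 65 subunits, with a median of 0.29 beside 0.01 over all genes. None passed, as 0 of all 15887 genes did. None had an unadjusted p under 0.05 (4.41% of all genes were lower and 2.23% higher), and DESeq2 called 0 (0.0567% of all genes lower and 0.0378% higher). The largest differences among abundant members were 0.59 for NDUFS6, 0.59 for NDUFS7 and 0.57 for NDUFA8 (adjusted p 0.8 to 0.846), and the lowest -0.34 for UQCRB. Against siNT1 all 7 core subunits of complex I, all 4 of complex II and all 12 of complex IV were above 0, and 7 of 8 of complex III. Against mock SDHA turned to -0.26 there.

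**Figure D4:**
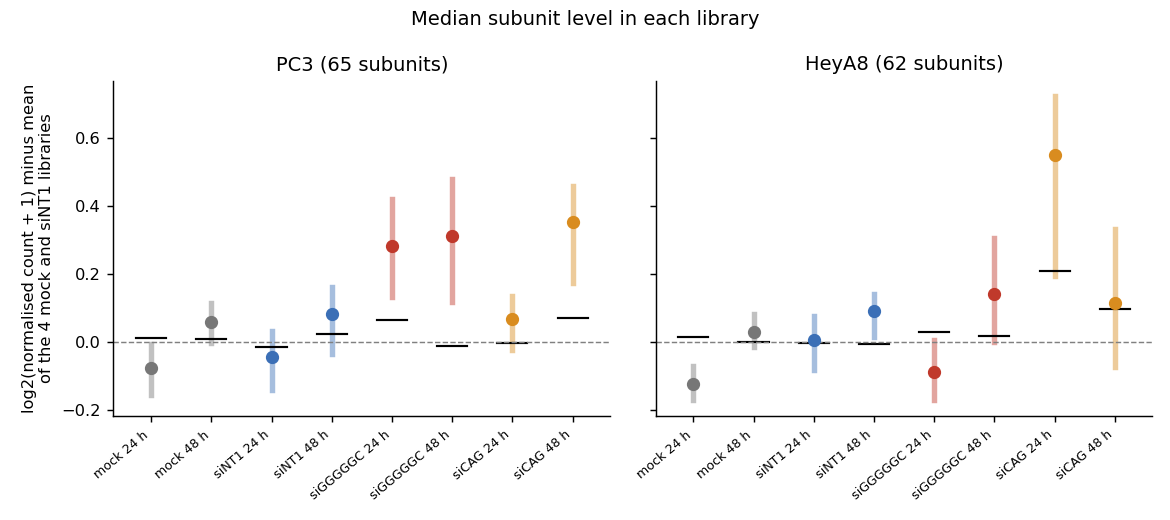
Median subunit level in each library (y axis, log2 of the normalised count plus 1, minus the mean of the mock and siNT1 libraries of the line), with thick bars the quartiles over subunits and black ticks the median of all genes tested. In PC3 cells both siGGGGGC libraries and the 48 h siCAG library stand above the controls, and in HeyA8 cells the 24 h siCAG library does so most, with the 48 h siGGGGGC (0.14) and siCAG (0.12) libraries just above the highest control (0.09).

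The same siNT1 libraries are the control for siCAG. In PC3 cells none of 65 subunits passed edgeR's test after siCAG, where 1.16% of all genes were lower and 0.0396% higher. At an unadjusted p under 0.05, 3 were higher and 0 lower (4.95% and 8.51% of all genes). DESeq2 called 1 higher, NDUFA7, and 0 lower (0.753% and 3.03% of all genes). The median log2 fold change was 0.14 (57 of 65 above 0, all genes -0.01). Normalised within the line, it was 0.07 at 24 h and 0.23 at 48 h, which are single libraries. NDUFA7 gave 1.16 ± 0.23 (adjusted p = 0.065), and 0.29 against mock. Among abundant members NDUFV3 (0.41), NDUFB10 (0.41) and COX6B1 (0.38) were highest and NDUFA10 (-0.10), SDHD (-0.09) and NDUFS1 (-0.08) lowest. Against mock SDHD gave 0.06. Both siCAG libraries lay above the 4 controls for 12 subunits (18.5%, against 14.4% of all genes) and below for none (against 13.7%).

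In HeyA8 cells 1 of 62 subunits passed after siCAG, NDUFA7 (1.24 ± 0.25, adjusted p = 0.0382), where 2.88% of all genes were higher and 4.93% lower. Against mock it gave 0.44 (adjusted p = 0.292). It passed in 8 of 13 alternatives (adjusted p 0.000502 to 0.378), and not with the 4 compared libraries alone, without the siGGGGGC libraries or without either siNT1 library. At an unadjusted p under 0.05, 3 subunits were lower and 7 higher (15.1% and 14.5% of all genes). DESeq2 called 1 lower (SDHD) and 2 higher (NDUFA4L2 and NDUFA7), where 10.9% and 8.29% of all genes were. The median log2 fold change was 0.14 (40 of 62 above 0, all genes -0.01), but the times differed: normalised within the line, the median was 0.32 at 24 h and -0.02 at 48 h, with 47 and 30 of 62 subunits above 0. Without the 24 h siCAG library 8 subunits were lower and 2 higher (17.4% and 14.1% of all genes) and the median was -0.08. Without the 48 h library 6 were lower and 20 higher (21.9% and 11.0% of all genes). On the scale of all 16 libraries the median of all genes stood 0.21 above the controls in the 24 h library and 0.10 in the 48 h library, and the subunits stood 0.55 and 0.12 above. Both siCAG libraries lay above the 4 controls for 26 subunits (41.9%, against 28.6% of all genes) and below for 5 (8.06%, against 18.9%), namely COX5A, NDUFB6, NDUFV2, SDHD and UQCRFS1. The 5 epithelial markers summed to 39943 and 41813 normalised counts after siNT1 at 24 and 48 h and to 57637 and 39999 after siCAG. The 3 mesenchymal markers summed to 216362 and 215563 after siNT1 and to 247966 and 150559 after siCAG. The marker sums here are on the scale of all 16 libraries. Normalised within the line, VIM, the most abundant of the 3, had 193953 and 193742 after siNT1 and 197616 and 123719 after siCAG. The 5 ovarian carcinoma markers summed to 6113 and 6604 after siNT1 and to 7317 and 9231 after siCAG. The part of these markers in the subunit values was not tested.

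SDHD was low at both times, with 5761 and 6132 normalised counts in mock, 5707 and 6591 in siNT1 and 3632 and 4099 in siCAG libraries (-0.80 ± 0.22, adjusted p = 0.0678). It did not pass edgeR's test, while DESeq2 called it lower. COX5A had 2172 normalised counts against 2587 after siNT1 at 24 h and 1658 against 2667 at 48 h (-0.60 ± 0.21, adjusted p = 0.121). NDUFA5 was low at 24 h alone, with 368 normalised counts against 1582 after siNT1 (log2 difference -2.10 on the 16-library scale), and stood at 1608 against 1761 at 48 h. The counts of NDUFA5 are uncertain for the counted length given above. UQCRB had 3477 normalised counts against 8096 at 24 h (-1.22) and 10589 against 9000 at 48 h. COX8A went from 5827 against 3216 at 24 h to 2518 against 3609 at 48 h. The 3 members that were highest among abundant ones were NDUFA13 (0.68), which is also known as GRIM-19, NDUFS5 (0.64) and COX6B1 (0.63), none of which passed. NDUFA13 had 4508 normalised counts against 2185 after siNT1 at 24 h and 3273 against 2244 at 48 h. NDUFS5 had 6669 against 3509 and 5486 against 3609, and COX6B1 5857 against 2725 and 4138 against 3162. All 3 stood above siNT1 at both times, by more at 24 h. NDUFA4L2, with 15.5 and 18.5 normalised counts after siNT1 and 79.8 and 61.6 after siCAG, gave 1.91 ± 0.47 (adjusted p = 0.0557), and 2.43 against mock (adjusted p = 0.0345).

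**Figure D5:**
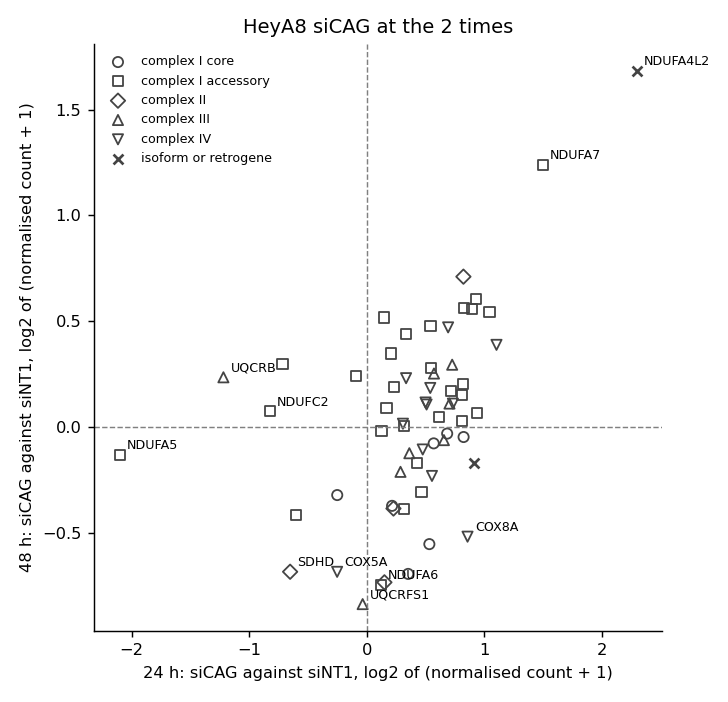
Log2 difference of siCAG against siNT1 in HeyA8 cells at 24 h (x axis) and 48 h (y axis), 1 point a subunit, from single libraries, as log2 of the count normalised over all 16 libraries plus 1. On this scale, where the median of all genes also stood 0.21 and 0.10 above the mean of the controls after siCAG, 52 of 62 subunits were above 0 at 24 h and 36 at 48 h, of which 32 were above at both, and NDUFA5 and UQCRB lie far to the left.

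In the comparison of the siCAG response between the lines none of the subunits passed (0.636% of all genes did). At an unadjusted p under 0.05, 2 subunits were lower and 1 higher in the PC3 minus HeyA8 difference (9.03% and 5.61% of all genes), and DESeq2 called 0 (2.09% of all genes lower and 2.13% higher). The median was -0.08, beside -0.13 over all genes. SDHD gave 0.61 ± 0.24 (adjusted p = 0.282) and NDUFA13 -0.66 ± 0.33 (adjusted p = 0.387).

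The 48 h libraries were compared with the 24 h libraries over the 4 treatments of each line. Time cannot be told apart here from the change of medium at 24 h that the methods give for siNT1 and siGGGGGC. None of the subunits passed between 48 and 24 h, where 0.0264% of all genes passed in PC3 and 0 in HeyA8 cells. DESeq2 called 0 subunits in both, with 0.760% of all genes lower and 0.614% higher in PC3, and 0.238% and 0.202% in HeyA8 cells. In PC3 cells 17 subunits were higher and 2 lower at an unadjusted p under 0.05, where 6.30% and 7.12% of all genes were. Of 65 subunits 50 were above 0 with a median of 0.09 (all genes -0.01). Complex IV had the highest median there, at 0.26 with 11 of 12 above 0, and COX7A2 gave 0.38 ± 0.11 (adjusted p = 0.297). In HeyA8 cells 38 of 62 were above 0 with a median of 0.07, and 1 subunit was higher and 0 lower at an unadjusted p under 0.05 (2.59% and 3.75% of all genes).

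Neighbouring gene groups were read beside the subunits. Of 20 ATP synthase genes tested, 0 passed after siGGGGGC in PC3 cells and 17 were above 0, with a median of 0.20. In that comparison 3.67% of all genes rose and 6.00% fell. Of 46 assembly factors 2 rose, the copper chaperone SCO1 (0.92 ± 0.17, adjusted p = 0.0234) and TTC19 (0.78), and 2 fell, LYRM7 (-1.56 ± 0.26, adjusted p = 0.0189) and LRPPRC (-0.70), which stabilises mitochondrial mRNA. LYRM7 is a chaperone of UQCRFS1 in the matrix. Of 11 regulators tested, 1 fell, the coactivator PPRC1 (-0.77). Of 13 genes of the tricarboxylic acid cycle 2 fell. Of these, citrate synthase CS had 10300 and 10194 normalised counts after siNT1 and 5012 and 3295 after siGGGGGC (-1.35 ± 0.17, adjusted p = 0.011). In HeyA8 cells none of these lists had a call after siGGGGGC, like all genes there.

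After siCAG the assembly factor COX10, which acts in the synthesis of the heme of complex IV, fell in both lines, where 1.16% of all genes fell in PC3 and 4.93% in HeyA8 cells. Its log2 fold change was -1.75 ± 0.20 for PC3 (adjusted p = 0.00705) and -1.49 ± 0.28 for HeyA8 (adjusted p = 0.0316). It had 477 and 503 normalised counts after siNT1 and 174 and 126 after siCAG in PC3 cells, and 938 and 944 against 501 and 264 in HeyA8 cells. GABPB1, a subunit of the ETS family regulator GABP, fell in HeyA8 cells (-1.09, adjusted p = 0.0343), where 10 of 11 regulators were below 0 with a median of -0.65. PPARGC1A, a coactivator on the same list of 12, was not tested because its counts were under the filter. It stood higher, with 9.53 and 103 normalised counts after siCAG against 2.06 and 2.31 after siNT1. GABPB1 had 672 and 683 normalised counts after siCAG, against 1307 and 1319 after siNT1. Normalised within the line, 9 of the 11 tested were below 0 at each time, with medians of -0.53 at 24 h and -0.61 at 48 h. On that scale GABPA, the partner of GABPB1, had 473 normalised counts against 1705 after siNT1 at 24 h and 2100 against 1923 at 48 h. It was singled out after its values were seen. CYC1, CYCS and NDUFAB1, subunits or carriers with other symbols, did not pass in any siRNA comparison. After siCAG in HeyA8 cells CYCS gave -1.06 ± 0.25 (edgeR's test, adjusted p = 0.0523), NDUFAB1 -0.75 and CYC1 0.02. Normalised within the line, CYCS had 11424 and 11689 counts after siNT1 and 4587 and 6529 after siCAG.

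Subunits with and without a seed match were set side by side, the matches of NDUFA9 and NDUFV3 beyond their counted ends included. After siGGGGGC in PC3 cells the median was 0.35 for the 5 that hold GCCCCC there and 0.27 for the rest, while over all genes the medians were -0.11 and 0.05. In HeyA8 cells the values were -0.19 and -0.06 for the subunits and -0.11 and 0.04 for all genes. The 12 subunits tested with an NRF1 core in the promoter had a median of 0.25 after siGGGGGC in PC3 cells, and the 41 without 0.30. With and without the ETS core the medians were 0.29 and 0.27. With the YY1 core (8 subunits) and without (45) they were 0.25 and 0.29.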

How the data were processed

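Total RNA depleted of ribosomal RNA was sequenced in pairs. Trimmomatic was used for trimming and hg38 for alignment (the submitters' processing notes name STAR and HTSeq), and the authors counted exonic reads per gene. The deposited values are raw counts, with no normalization, and the deposited table also gives each gene's counted length. Whether counting used strand is not given in the sources used here.

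Counts of 16 libraries were normalised by TMM in edgeR 4.0.16 (R 4.3.3), within each line for tests, and over both lines for printed normalised counts. Genes were kept by filterByExpr with line and treatment as groups (15136 in PC3, 13872 in HeyA8, 15887 over both). Quasi-likelihood fits had treatment and time as terms, all 8 libraries of a line (16 for both lines) sharing the spread, with Benjamini-Hochberg adjustment over all genes and a threshold of 0.05. Residual degrees of freedom were 3, 3 and 6. Alternatives were RLE size factors, library size alone, DESeq2 1.42.0, other filters, no term for time, fewer libraries, mock as control, single times and leaving out each library. Printed p-values measure the spread between these libraries only, which may be technical.

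Members and lists were chosen with earlier results of these data known. Named subunits were those called (the 5 lowest and highest if more), or, with fewer than 3 calls, the 3 lowest and highest of those over 1000 mean normalised counts, core and catalytic subunits, tissue isoforms, the most abundant per kilobase and those with seed matches. COX5B, and subunits named with mock as control or for groups that do not overlap, were named after their values were seen. Sequences came from GENCODE v44 and RefSeq, with Python 3.11.15. Of the symbols 23161 matched, and 69 subunits had a coding transcript. Values of a few single genes are not reported here.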

Additional observations from a re-analysis of the deposited data

Results flagged for a closer look

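NDUFV2, a core subunit of complex I, had values of opposite sign for siNT1 against mock in the 2 lines. The fitted values were within their SE of 0, at -0.08 ± 0.13 in PC3 and 0.14 ± 0.20 in HeyA8 cells. Its mean log2 difference was -0.086 in PC3 cells, where both times were below 0, and 0.138 in HeyA8 cells, where both were above. The difference was not tested, and in neither line did NDUFV2 pass edgeR's test.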

How the results depend on the processing

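Of 110 medians of the subunits under alternatives, 10 had the other sign: 3 for HeyA8 siGGGGGC, 2 for HeyA8 siCAG and 5 between the mock lines, where the median was -0.00. The calls of single subunits were each read under the alternatives of their comparison that hold a value for them. Between the mock lines COX6B2 had 8 such alternatives and the other calls 9. Of these values 155 kept their side of the threshold, 72 lost it and 0 reversed. For PC3 siGGGGGC against siNT1 (2 higher, 0 lower), RLE size factors gave 1 higher (3.65% of all genes), library size alone 0 (2.98%), no filter 1 (3.05%), the fit without the time term (no replicate block) 0 (1.17%), the 4 compared libraries alone 0 (0.512%) and the fit without siCAG libraries (chosen after seeing the data) 0 (2.19%). DESeq2 gave 4 higher and 1 lower (7.50% and 11.1%), and mock as control 7 higher and 3 lower (8.83% and 12.3%). The median of 0.27 was 0.31 with mock as control and 0.32 at 24 h. For PC3 siCAG, DESeq2 and no filter each gave 1 higher (0.753% and 0.106% of all genes) and the 4 compared libraries 2 (4.92% of all genes). For PC3 siNT1 against mock, DESeq2 gave 1 lower (0.614%), and the median at 24 h was 0.084. For HeyA8 siGGGGGC, the median was 0.061 with mock as control and 0.031 at 48 h alone. For HeyA8 siCAG (1 higher, 0 lower), DESeq2 gave 2 higher and 1 lower (8.29% and 10.9% of all genes), no replicate block 2 higher (3.36%), and the 4 compared libraries (1.10%) or the fit without siGGGGGC libraries (added after seeing the data, 0.409%) 0. Its median was reversed at 48 h alone (-0.015). For HeyA8 siNT1 against mock, the 4 compared libraries gave 1 lower (NDUFA7) and 4 higher (COX7A2L, NDUFS6, NDUFS7 and UQCR10), where 5.05% and 6.79% of all genes were. For HeyA8 time, the mock and siNT1 libraries alone gave 10 higher, where 5.20% of all genes were. Between the mock lines, the 4 mock libraries alone gave 22 lower and 20 higher, where 36.3% and 38.7% of all genes were. The causes were not tested.

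Leaving out each library in turn gave, for PC3 siGGGGGC, 0 to 1 lower (0 to 13.4% of all genes), 0 to 3 higher (0 to 10.1%) and medians of 0.21 to 0.29. UQCRC2 was the subunit called lower, without the 24 h siGGGGGC library. The medians were 0.010 to 0.061 for PC3 siNT1 against mock, -0.12 to 0.084 for HeyA8 siGGGGGC (above 0 without its 24 h library) and 0.048 to 0.17 for HeyA8 siNT1 against mock. HeyA8 siCAG gave 0 to 8 lower (0.291% to 21.9% of all genes), 0 to 20 higher (0 to 14.1%) and medians of -0.082 (without its 24 h library) to 0.33. The mock lines gave 5 to 6 lower (12.8% to 15.7% of all genes), 3 to 8 higher (16.6% to 21.7%) and medians of -0.10 to 0.098. A single library then stands for a group and is assumed to vary like the others. The time term pairs libraries by hours after transfection, as the labels give them.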
